A study of Mus musculus with 24 samples.

Results

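The genes described here are 10 immediate early genes of the mouse mammary gland: Fos, Fosb, Fosl2, Jun, Junb, Egr1, Egr2, Egr3, Atf3 and Ier3. They were found by gene symbol among the probes of the array, where 11 of 55681 probes carry one of these names, Fosl2 having 2 probes and each other gene 1. The 10 genes were selected on measured values, since earlier results of these data showed several of them higher after low-dose ionizing radiation (LDIR) in BALB/c mice at 8 weeks. That comparison is therefore a description: its differences and its counts of genes past a threshold are printed as values, and no p is given or support drawn from them. RNA of 24 female mice was measured, each on its own one-colour array, in 8 groups of 3. In BALB/c, LDIR mice and sham mice were taken 2, 4 and 8 weeks after exposure, and in SPRET/EiJ at 4 weeks alone. LDIR was a single whole-body X-ray dose of 10 cGy given to mice aged 8 to 9 weeks, and the labels give the same age for sham mice. BALB/c mice are of a widely used laboratory strain, whereas SPRET/EiJ mice come from another species, Mus spretus.

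Immediate early genes are transcribed within minutes of a stimulus, from transcription factors already present in the cell, and most of their mRNAs are short-lived. Fos, Fosb, Fosl2, Jun and Junb encode subunits of the AP-1 transcription factor, in which a Fos family protein pairs with a Jun family protein. Egr1, Egr2 and Egr3 encode zinc finger transcription factors that follow growth factor signals, Atf3 encodes a stress-induced factor that can pair with Jun proteins, and Ier3 encodes a short-lived regulator of cell survival. The same genes are known to respond to handling, dissection and delay before a tissue is frozen. The time from death to freezing is not given in the sources used here.

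The promoters of the genes that separated the 8-week groups are shown first, with that of Egr2. Sequences and starts come from RefSeq (GRCm38.p6), whose table held promoters of 8 of the 10 genes, Egr1 and Egr3 being absent. Among these 8 genes Egr2 alone had a CArG box within the 250 bases searched. Bases further upstream were not searched, so the other genes may hold one there. Each run is the 250 bases before the transcription start, 5′ to 3′ on the strand of the gene. Capitals mark TGACG, the core of the cyclic AMP response element TGACGTCA, on either strand (CGTCA on the other), and in Egr2 also the CArG box, the serum response factor motif. Egr2 has 5 listed starts, and 1 of them is shown.
Fos, chr12:85473640-85473889, plus strand: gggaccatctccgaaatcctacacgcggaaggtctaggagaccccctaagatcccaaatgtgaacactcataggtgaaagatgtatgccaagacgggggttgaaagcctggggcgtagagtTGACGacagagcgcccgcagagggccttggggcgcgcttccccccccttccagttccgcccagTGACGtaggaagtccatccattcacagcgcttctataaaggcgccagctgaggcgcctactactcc
Fosb, chr7:19310046-19310295, minus strand: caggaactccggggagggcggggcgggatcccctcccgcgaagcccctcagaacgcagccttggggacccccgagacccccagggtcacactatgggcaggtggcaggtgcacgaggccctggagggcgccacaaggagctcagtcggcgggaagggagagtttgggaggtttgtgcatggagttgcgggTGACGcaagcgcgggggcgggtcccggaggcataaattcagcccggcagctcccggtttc
Junb, chr8:84978749-84978998, minus strand: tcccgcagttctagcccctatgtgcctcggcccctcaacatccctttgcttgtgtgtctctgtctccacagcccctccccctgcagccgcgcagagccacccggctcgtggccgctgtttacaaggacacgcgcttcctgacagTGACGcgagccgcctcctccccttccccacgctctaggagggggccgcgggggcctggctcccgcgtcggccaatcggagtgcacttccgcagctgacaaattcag
Atf3, chr1:191183334-191183583, minus strand: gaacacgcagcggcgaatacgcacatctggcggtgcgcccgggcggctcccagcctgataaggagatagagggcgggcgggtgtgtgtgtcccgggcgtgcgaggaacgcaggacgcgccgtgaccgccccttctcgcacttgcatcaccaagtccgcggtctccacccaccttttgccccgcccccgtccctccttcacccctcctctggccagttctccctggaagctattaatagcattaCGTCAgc
Egr2, chr10:67537619-67537868, plus strand: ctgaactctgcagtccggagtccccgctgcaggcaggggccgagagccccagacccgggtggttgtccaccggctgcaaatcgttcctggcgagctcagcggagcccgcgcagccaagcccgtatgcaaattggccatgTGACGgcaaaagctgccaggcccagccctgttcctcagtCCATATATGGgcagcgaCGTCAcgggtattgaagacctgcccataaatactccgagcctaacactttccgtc

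The TGACG core lies in the windows of Fos, Fosb, Junb, Atf3 and, at some of its starts, Egr2. The windows of Fosl2, Jun and Ier3 do not hold the core, which lies in 17.75% of the 32817 mouse promoters of this length. In Fos it begins 129 and 66 bases before the start, in Fosb 60 and in Junb 106 bases before it. In Atf3 it lies on the other strand, from 7 to 3 bases before the start. The CArG box of the Egr2 window shown lies from 72 to 63 bases before the start, and 1.47% of promoters hold one. The complete element TGACGTCA (1.55% of promoters; each such stretch also holds the core) and the AP-1 site TGANTCA (6.75% of promoters) are in none of the windows of the 8 genes. A match of letters is a description and says nothing of binding. Nothing is read from these shares, because the 8-week comparison chose the genes.

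Levels are log2 intensities from which the 75th percentile of the array was subtracted, so that 0 is that percentile. Arrays lay 8 to a slide on 3 slides, and the 8-week LDIR replicate A shared slide 2 with all 3 sham mice of its time, whereas its fellow replicates B and C were on slide 3 with the SPRET/EiJ arrays. The share of probes above background ran from 57.2% to 72.7% over the arrays. For 9 of the 10 genes the probe was well above background on all 24 arrays. The Egr3 probe was so on 5 arrays, so its values elsewhere have only a bound. Of the labelled tissue, 17 of 17 epithelium markers and 10 of 10 white adipocyte markers exceeded background clearly on every array of every group. Lymphocyte markers stood apart on 3 arrays (8-week sham A, 8-week LDIR B and SPRET/EiJ LDIR A), where the median of 11 markers was 4.92 to 5.42 log2 units above the 24-array mean of each gene, against −0.97 to −0.35 on the other arrays. Fewer cells of a type and less RNA per cell cannot be told apart in whole tissue.

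At 8 weeks Fos and Fosb separated the BALB/c groups, and Fosl2 did not. Fos was at 5.11, 3.33 and 3.63 in LDIR replicates A, B and C and at −0.18, 2.79 and 2.14 in the sham mice. All 3 LDIR mice lay above all 3 sham mice, with replicate A highest and sham A lowest. Fosb was at 3.61, 0.79 and 1.5 after LDIR and at −1.17, −0.16 and −0.34 after sham. Again the groups did not overlap, and LDIR replicate A stood 2.11 above the next array. The difference of means (LDIR minus sham) was 2.44 ± 0.89 (SE) for Fos and 2.52 ± 0.77 for Fosb. Fosl2, a Fos relative with slower kinetics, was at 2.67, 1.69 and 2.26 against 2.28, 2.63 and 2.41, with overlapping groups and a difference of −0.23 ± 0.32.

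Of the Jun family at 8 weeks, Junb separated the groups and Jun did not. Junb was at −0.13, −0.64 and −1.17 in the LDIR mice and at −1.85, −1.49 and −1.26 in the sham mice, a difference of 0.89 ± 0.35. Here LDIR replicate C lay only 0.09 above sham C. Jun was at 5.62, 3.96 and 5.03 after LDIR and at 2.80, 4.16 and 4.14 after sham, and LDIR replicate B fell between the sham mice. Its difference was 1.17 ± 0.58.

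Atf3 was at 3.61, 0.77 and 1.45 in the LDIR mice and at −1.68, 0.38 and −0.52 in the sham mice at 8 weeks. The groups did not overlap and the difference was 2.55 ± 0.88, but LDIR replicate B stood 0.39 above sham B while replicate A stood 3.23 above it. Egr1 was at 5.93, 4.65 and 4.47 against 2.40, 4.74 and 4.47. Without LDIR replicate A and sham A the Egr1 values ran from 4.47 to 4.74 in both groups together. Egr2 (2.53, 2.03 and 1.53 against 0.57, 2.02 and 2.24) and Ier3 (1.44, 0.91 and 0.97 against −0.26, 1.09 and 1.01) likewise had their highest value in LDIR replicate A and their lowest in sham A. Egr3 was well above background in LDIR replicate A (−5.14) and sham A (−3.68), and not on the other 4 arrays of that time.

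The thresholds of the study's methods are an unadjusted p under 0.05 and more than a 1.5-fold change. Here and below they were applied to the p of limma, unless another test is named. With the test that the study itself used, Fosb alone of the 10 genes lay past them at 8 weeks. By limma Fos, Fosb, Junb and Atf3 did, 4 of 10 genes, all higher after LDIR. In the same limma comparison 1.92% of all probes passed these thresholds in either direction and 0.169% were higher and past them. Of all probes, 0.918% had all 3 LDIR arrays above all 3 sham arrays. Nothing is read from these shares, because the comparison chose the genes. Over the 10 genes the median difference was 1.02, with 8 of 10 higher, and the median over all probes was −0.14. Relative to that median, Fos stood at 2.58, Fosb at 2.66, Atf3 at 2.69 and Junb at 1.03. Quantile normalization put the median of all probes at 0.01 and the median of the 10 genes at 1.07.

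**Figure D1:**
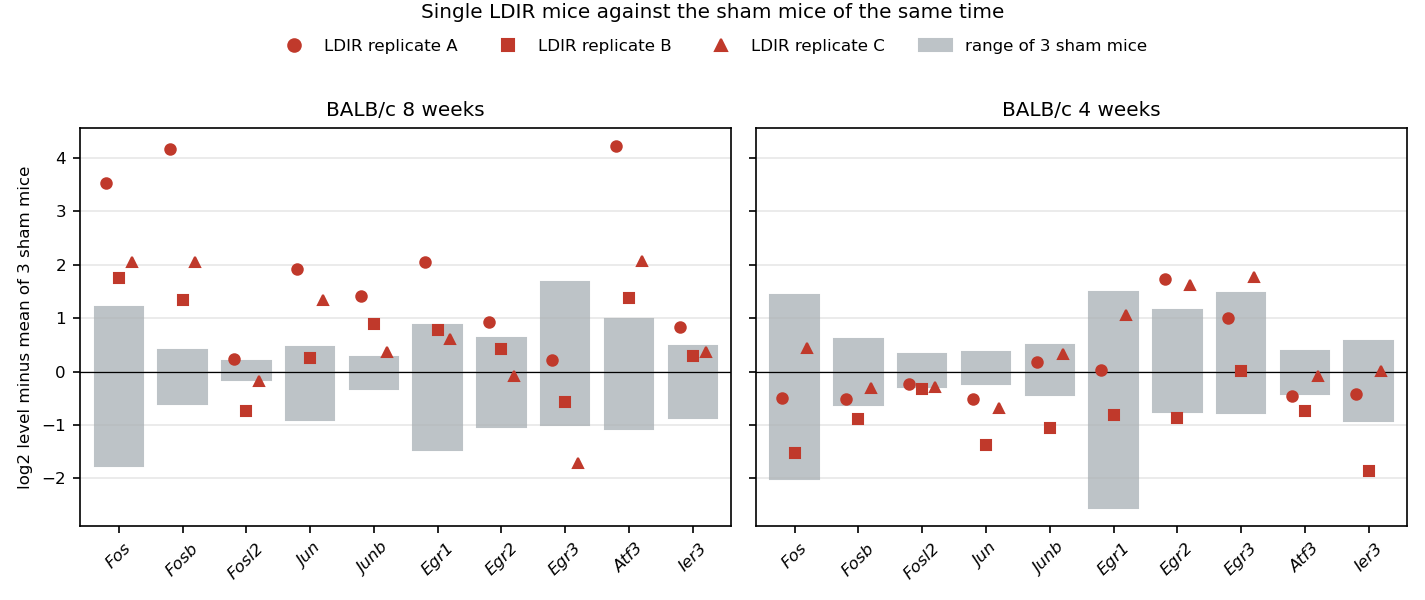
Log2 level of each gene in each LDIR mouse minus the mean of the 3 sham mice of the same time (points, by replicate letter), with the range of the 3 sham mice as a grey box, for BALB/c at 8 weeks (left) and 4 weeks (right). At 8 weeks LDIR replicate A is the highest LDIR mouse for every gene, and replicates B and C lie above the sham range for Fos, Fosb, Junb and Atf3.

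LDIR replicate A carried more of the 8-week difference than the other LDIR mice, and sham A carried a further share from below. Of the 6 arrays of that time, LDIR replicate A was highest for 9 of the 10 genes and sham A lowest for 8. Against the mean of the 3 sham mice, the median over the 10 genes was 1.66 in LDIR replicate A, 0.60 in B and 0.48 in C. Replicate A was above the sham mean for 10 genes, B for 8 and C for 7. Fosb stood 4.16, 1.34 and 2.05 above the sham mean in replicates A, B and C, and Atf3 stood 4.22, 1.38 and 2.06 above it.

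Leaving out single mice shows the same in numbers. Without LDIR replicate A the median difference of the 10 genes was 0.66, with 8 of 10 still higher, and the differences of Fos, Fosb and Atf3 were 1.90, 1.70 and 1.72. Without sham A the median was 0.57. The count of 4 genes became 1 without LDIR replicate A and 2 without sham A or without sham C, as a description like the count itself. With LDIR replicate A and sham A both left out, a setting chosen after seeing the data, the median was 0.15 and 5 of 10 genes were higher. The differences were then 1.02 for Fos, 1.39 for Fosb and 1.18 for Atf3. The remaining 2 LDIR mice lay above the remaining 2 sham mice for Fos, Fosb, Atf3 and Junb, since the groups of 3 did not overlap.

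**Figure D2:**
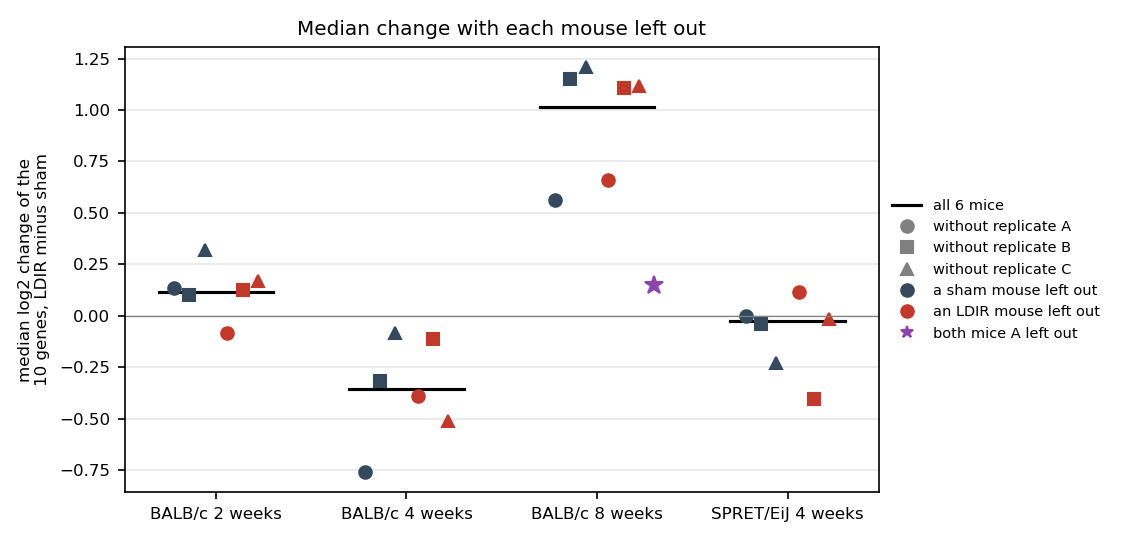
Median log2 difference of the 10 genes (LDIR minus sham) in each LDIR comparison, with all 6 mice (black line) and with each mouse left out (points, shape by replicate letter, colour by group). At 8 weeks the median moves from 1.02 to 0.66 without LDIR replicate A, to 0.57 without sham A and to 0.15 without both (star), and at 4 weeks from −0.35 to −0.76 without sham A, −0.08 without sham C and −0.11 without LDIR B.

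The slides move with these values. On slide 2 alone, LDIR replicate A against the 3 sham mice of 8 weeks, all 10 genes were higher in the LDIR mouse and the median difference was 1.66. Its level was above every sham mouse of slide 2 for 9 genes, the exception being Egr3. The LDIR replicates B and C had no sham mouse of their strain on slide 3, so for these 2 mice slide and treatment cannot be told apart. Cell type markers also varied between the mice of 8 weeks. The log2 summed level of the lymphocyte markers ran from 4.43 to 8.02 in the LDIR group and from 4.02 to 7.68 in the sham group, with 1 high array in each group, LDIR B and sham A, so that the ranges overlapped. The 2 lymphocyte-high arrays differed in Fos (3.33 in LDIR B and −0.18 in sham A), in Fosb (0.79 and −1.17) and in Atf3 (0.77 and −1.68). Skeletal muscle markers varied more widely, with summed levels from 2.19 to 9.94 after LDIR and from 5.68 to 7.64 after sham. LDIR B was the array with the lowest muscle markers, and the part of these markers in the result was not tested.

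Over all 24 arrays, LDIR replicate A of 8 weeks gave the highest value of 8 of the 10 genes. The exceptions were Egr2, highest in SPRET/EiJ LDIR B at 3.10, and Egr3. Of the 29337 probes well above background on every array, 1.54% were highest on that array of LDIR replicate A. Nothing is read from this share, because the 8-week comparison chose the genes. Ranked by the median of the 10 genes, each centred on its mean over 24 arrays, the 8-week LDIR mice came first (A, 2.12; C, 1.36; B, 1.33). The 8-week sham mice B (0.99) and C (0.84) came next and 4-week sham C (0.70) after them, ahead of every other LDIR mouse. Sham A of 8 weeks lay at −0.51. The levels of these genes in 2 of the 3 sham mice of 8 weeks were thus above those of all 2-week and 4-week LDIR mice by this median.

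**Figure D3:**
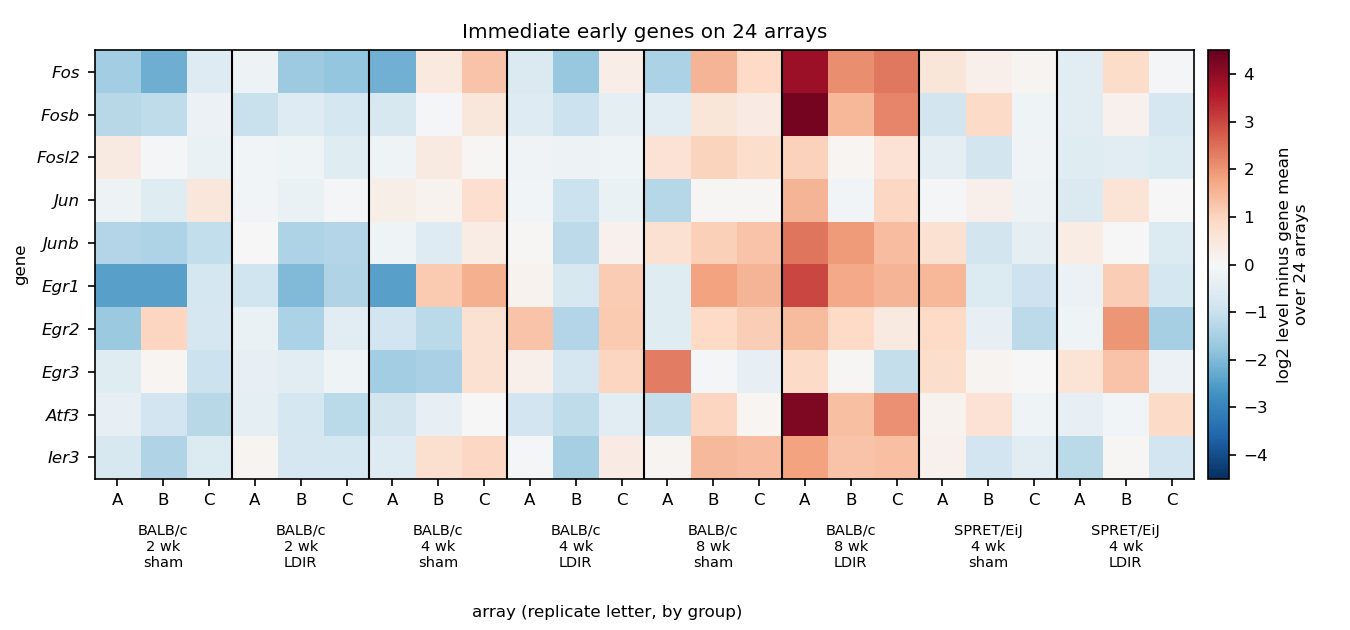
Log2 level of each of the 10 genes (rows) on each of the 24 arrays (columns, by group and replicate letter), minus the mean of the gene over 24 arrays; red is higher and blue lower. The column of 8-week LDIR replicate A is the darkest for Fos, Fosb and Atf3, and the 8-week sham mice B and C are red for 9 of the 10 genes.

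The order of the 8 groups differed between genes. The 8-week LDIR group had the highest mean of 8 genes, Fosl2 and Egr3 being highest in 8-week sham. For Fos, Fosb, Atf3 and Junb its range did not overlap that of the next group. Below it most neighbours overlapped. Fos ran from 1.58 ± 1.56 (SD, n = 3) in 8-week sham, through 1.53 ± 0.22 in SPRET/EiJ sham, to −0.20 ± 0.81 in 2-week sham, with no gap between any 2 neighbouring groups. Junb was the exception among these 4 genes. Its 8-week sham mice (−1.53 ± 0.30) lay above all mice of the next group, SPRET/EiJ LDIR (−2.64 ± 0.48), and its lowest group was 2-week sham (−3.82 ± 0.14).

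**Figure D4:**
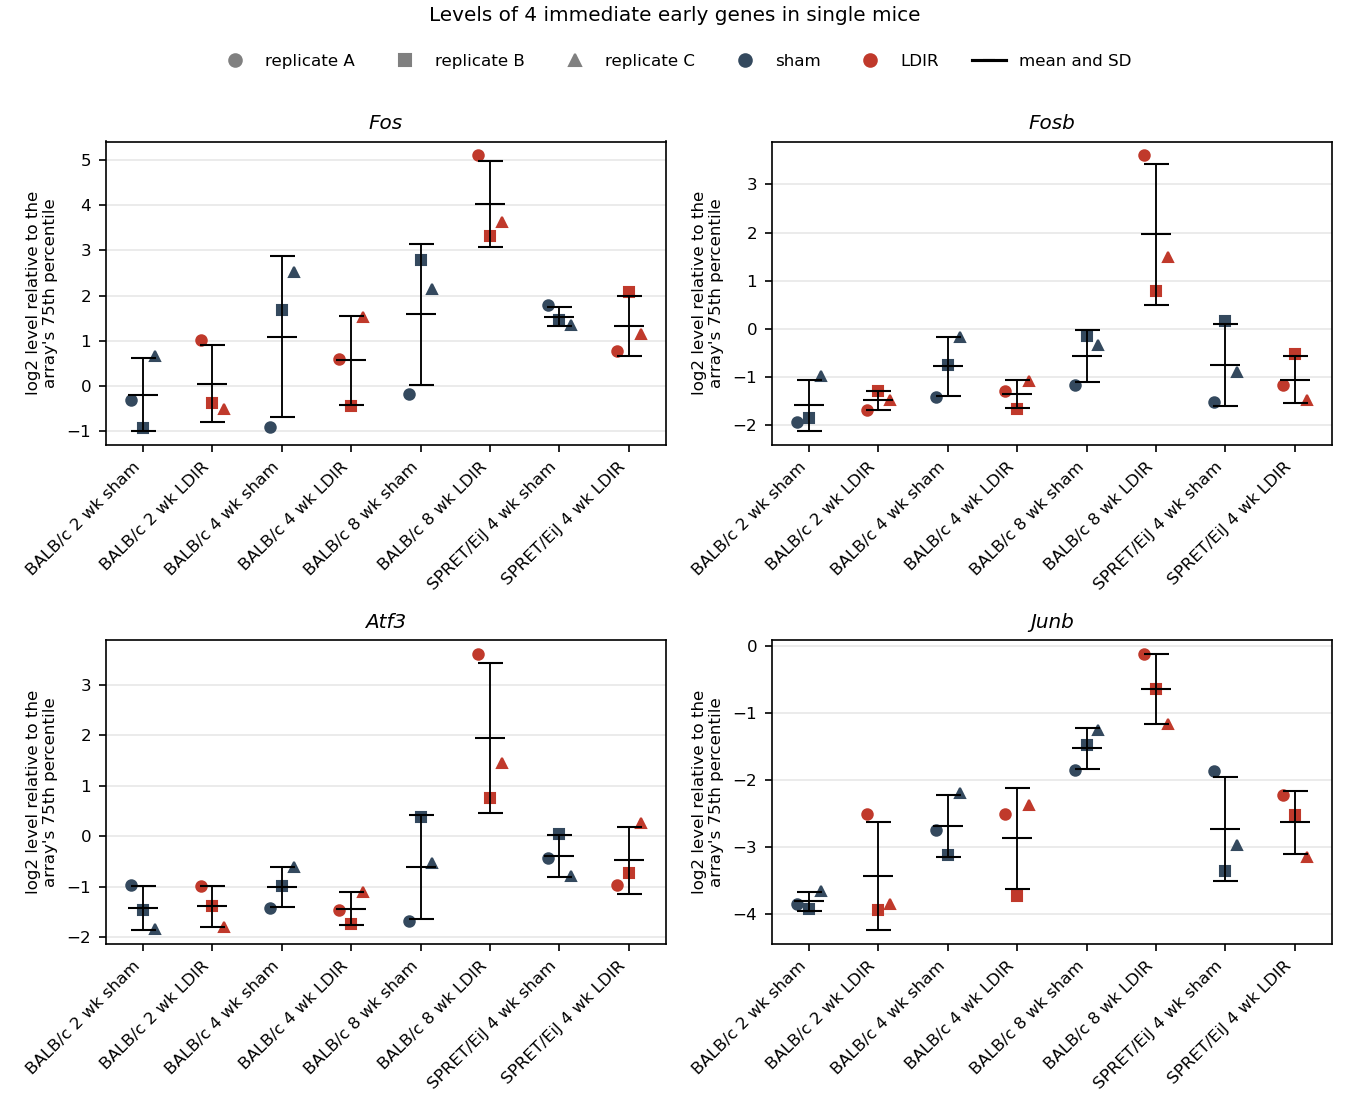
Log2 level of Fos, Fosb, Atf3 and Junb relative to the array's 75th percentile in every mouse (points, shape by replicate letter), with the mean and SD of each group of 3. In each panel the 8-week LDIR mice lie above the other groups, replicate A is the highest of them, and the sham groups of Fos spread over 3.74 log2 units.

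At 4 weeks in BALB/c, Jun was the 1 gene of the 10 past the thresholds, which 4.83% of all probes passed, and it was lower after LDIR. Jun was at 3.96, 3.11 and 3.79 in the LDIR mice and at 4.35, 4.24 and 4.84 in the sham mice. The groups did not overlap, and the difference was −0.85 ± 0.29 with an adjusted p of 0.775 by limma. Leaving out sham C (−0.67) or LDIR B (−0.60) took Jun out of the thresholds, and in each case a gene of the Egr family, higher after LDIR, passed them instead (Egr3 and Egr2). The median difference over the 10 genes was −0.35, against 0.02 over all probes, and 3 of 10 were higher, which were Egr1 (0.09), Egr2 (0.83) and Egr3 (0.93). The Egr3 probe was well above background on 1 of these 6 arrays.

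Single mice stood apart at 4 weeks too. Sham C was the highest of the 6 arrays for 7 of the 10 genes, and LDIR B the lowest for 7. Fos in the sham mice was at −0.92, 1.68 and 2.52, a wider spread than the 0.60, −0.44 and 1.53 of the LDIR mice. Egr1 likewise ran from 0.49 in sham A to 4.53 in sham C. Sham A and B lay on slide 1 and all other 4-week BALB/c arrays on slide 2. On slide 2 alone the 3 LDIR mice were below sham C on average for all 10 genes, with a median difference of −0.99, and each LDIR mouse was below it for 8 genes. That value rests on 1 sham mouse. Over both slides the median of −0.35 became −0.76 without sham A, −0.08 without sham C, with 5 of 10 genes higher, and −0.11 without LDIR B, with 4 higher.

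At 2 weeks in BALB/c none of the 10 genes passed the thresholds, beside 3.05% of all probes, and the median difference was 0.11 with 7 of 10 higher. The fitted differences ran from −0.30 ± 0.23 (Fosl2) to 0.49 ± 0.52 (Egr1). Fos was at 1.02, −0.38 and −0.51 after LDIR and at −0.31, −0.95 and 0.66 after sham, and the groups overlapped for all 10 genes. LDIR replicate A was highest of the 6 arrays for 3 genes and sham C for 3. Without sham C, Egr1 passed the thresholds, and without LDIR replicate A the median became −0.08.

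In SPRET/EiJ mice at 4 weeks none of the 10 genes passed the thresholds either, beside 2.21% of all probes. Differences were from −0.30 ± 0.48 (Fosb) to 0.31 ± 0.92 (Egr2), 5 of 10 were higher, and the median was −0.03. It became −0.40 without LDIR B and −0.23 without sham C, with 2 of 10 higher in each case, and 0.12 without LDIR A. Fos was at 0.76, 2.07 and 1.15 after LDIR and at 1.78, 1.47 and 1.36 after sham. LDIR B was above the sham mean for 8 genes, while LDIR A and C were above it for 3 and 2. The array of LDIR A was the one with high lymphocyte markers in that strain.

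The change after LDIR at 4 weeks was compared between strains, and in BALB/c between 2 and 4 weeks, by the interaction term of a limma fit of 12 arrays. None of the 10 genes passed the thresholds in either test, which 3.59% of all probes passed between strains and 3.66% between times. The largest differences of changes were −0.88 ± 0.48 for Jun (BALB/c minus SPRET/EiJ, adjusted p = 0.955) and −1.18 ± 0.74 for Ier3 (4 minus 2 weeks, adjusted p = 0.999). Standard errors of the differences were from 0.31 to 1.44 log2 units over the genes, so only large differences would have been seen.

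Between sham mice of the strains at 4 weeks, none of the 10 genes passed the thresholds of an unadjusted p under 0.001 and 1.5-fold, beside 8.89% of all probes. BALB/c was higher for 5 of the 10, with a median difference of 0.01. Single mice moved this median from −0.47 without BALB/c sham C, with 3 of 10 higher, to 0.39 without BALB/c sham A, with 7 higher. The differences ran from −1.1 ± 0.63 for Egr3 (adjusted p = 0.298), whose probe was well above background in none of these 6 mice, to 0.75 ± 0.47 for Ier3 (adjusted p = 0.335). Probes were designed on the laboratory mouse genome, and the effect of Mus spretus sequence on their signal was not tested. The SPRET/EiJ sham arrays lay on slide 3 and the BALB/c sham arrays of 4 weeks on slides 1 and 2. Strain and slide therefore cannot be told apart, here or in the strain comparisons of other genes below.

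The 10 genes also varied between sham mice of different harvests. Of the genes, 9 were higher in BALB/c sham at 4 weeks than at 2 weeks, with a median difference of 0.64 against a median near 0 for all probes. Junb (1.13 ± 0.27) and Ier3 (1.27 ± 0.44) passed the thresholds of the LDIR comparisons, as 3.04% of all probes did, and both had an adjusted p of 0.984 by limma. Junb was at −2.75, −3.13 and −2.20 at 4 weeks and at −3.86, −3.93 and −3.67 at 2 weeks. Ier3 was at −0.94, 0.34 and 0.56 at 4 weeks and at −1.11, −1.75 and −0.98 at 2 weeks, so that sham A of 4 weeks lay just above the 2-week mice. The number past the thresholds ran from 1 to 5 as single mice were left out, with 5 genes when 4-week sham A was left out, 4 without 2-week sham C, and 1 without 2-week sham A, 2-week sham B or 4-week sham B. With slide as a block neither gene passed, at differences of 0.88 ± 0.50 for Junb and 0.98 ± 0.58 for Ier3. In the same comparison 6 of 6 erythrocyte markers were lower at 4 weeks, with a median of −1.29, which ran from −1.80 to −0.83 as single mice were left out. Muscle markers were lower for 10 of 10 (median −1.22), but this rests on 2-week sham C, without which 8 of 10 were higher at 4 weeks (median 1.14). The part of these markers was not tested.

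Within groups these genes varied more than most. The within-group SD over the 24 arrays was 1.09 for Fos, 1.22 for Egr1 and 1.15 for Egr2, against a median of 0.31 over the 29337 probes well above background on all arrays. These 3 SDs were larger than those of 98.7%, 99.1% and 98.9% of the probes. Fosb (0.73), Atf3 (0.75), Ier3 (0.65), Junb (0.58) and Jun (0.55) exceeded 86.6% to 95.5% of them. Egr3 (0.90) exceeded 97.6%, with a probe well above background on 5 arrays. Fosl2 was unlike the others, with an SD of 0.29 that exceeded 44.6%. These SDs include the 8-week arrays, whose comparison chose the genes. For Atf3 the SD was 1.48 in 8-week LDIR and 1.03 in 8-week sham, against 0.32 to 0.66 in the other groups. Among the 9 BALB/c sham mice alone, of 3 harvest times, Fos ranged over 3.74 and Egr1 over 4.25 log2 units from the lowest to the highest mouse.

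The deviations of the 10 genes from their group means tended to go together across mice. Over 24 arrays the Pearson correlation was highest between Fos and Ier3 (0.90), Fos and Egr1 (0.90) and Egr1 and Ier3 (0.86), and its median over 45 pairs was 0.46. With the 8-week LDIR replicate A and sham A left out these 3 values were 0.89, 0.88 and 0.83 and the median was 0.37. Fosl2 followed the mean of the other 9 genes least without those 2 mice (0.09), and Atf3 dropped from 0.53 to 0.22. Fos followed it at 0.86 with them and 0.85 without. The values of an array share its RNA and hybridization, so these correlations are a description with no test.

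The genes most like the 10 in these deviations, over 24 arrays, were H3f3b, which encodes a replacement histone (r = 0.82), Cyr61, an immediate early gene for a matrix protein (0.80), Hepacam (0.80), Gm11567 (0.79), 2210409D07Rik (0.78), Kcnd3 (0.77), Gucy2e (0.76) and Glrp1 (0.75), out of 29150 probes compared. Cyr61 was at 3.49, 2.67 and 2.97 in the 8-week LDIR mice and at 0.49, 2.60 and 2.98 in the sham mice. It thus had the same extremes as Egr1, LDIR replicate A and sham A. Of the 8, Cyr61 alone was in the wider list of immediate early genes, and Hepacam, Gm11567 and 2210409D07Rik were well above background on only 15 to 19 arrays.

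A wider list of 50 immediate early genes was higher at 8 weeks in LDIR mice for 41 of its genes, with a median difference of 0.36. Past the thresholds, beside 1.92% of all probes and with nothing read from it because this comparison chose the 10 genes, were Nr4a1 (1.83 ± 0.39), an orphan nuclear receptor, Btg2 (1.05 ± 0.28), an inhibitor of proliferation, Zfp36 (1.00 ± 0.38), which promotes decay of mRNAs, Ier2 (0.86 ± 0.32), Ppp1r15a (0.80 ± 0.26), a phosphatase subunit of the stress response, and Plk3 (0.68 ± 0.27), a kinase. Nr4a1 was at 5.49, 4.25 and 5.15 after LDIR and at 2.90, 3.43 and 3.06 after sham. LDIR replicate A was again highest, but replicate C was close to it. Btg2 was at 3.49, 2.98 and 2.66 against 2.07, 2.00 and 1.92, and its 3 LDIR mice were nearer each other than those of Fos. Over the list the median centred level was 0.95 in LDIR A, 0.92 in LDIR B and 0.49 in LDIR C, against 0.53, 0.26 and 0.26 in sham A, B and C. Some genes of this list were highest on the 3 arrays high in lymphocyte markers. Dusp2, a nuclear phosphatase of MAP kinases, was at 6.01 in LDIR B, 5.45 in sham A and 4.72 in SPRET/EiJ LDIR A, against 1.01 in LDIR A. Tnfaip3, an inhibitor of NF-kappaB signalling, was at 3.39, 3.08 and 3.32 on those arrays and at 0.97 in LDIR A. With LDIR B and sham A left out, a setting chosen after seeing the data, 41 of 50 genes were higher and the median was 0.41.

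**Figure D5:**
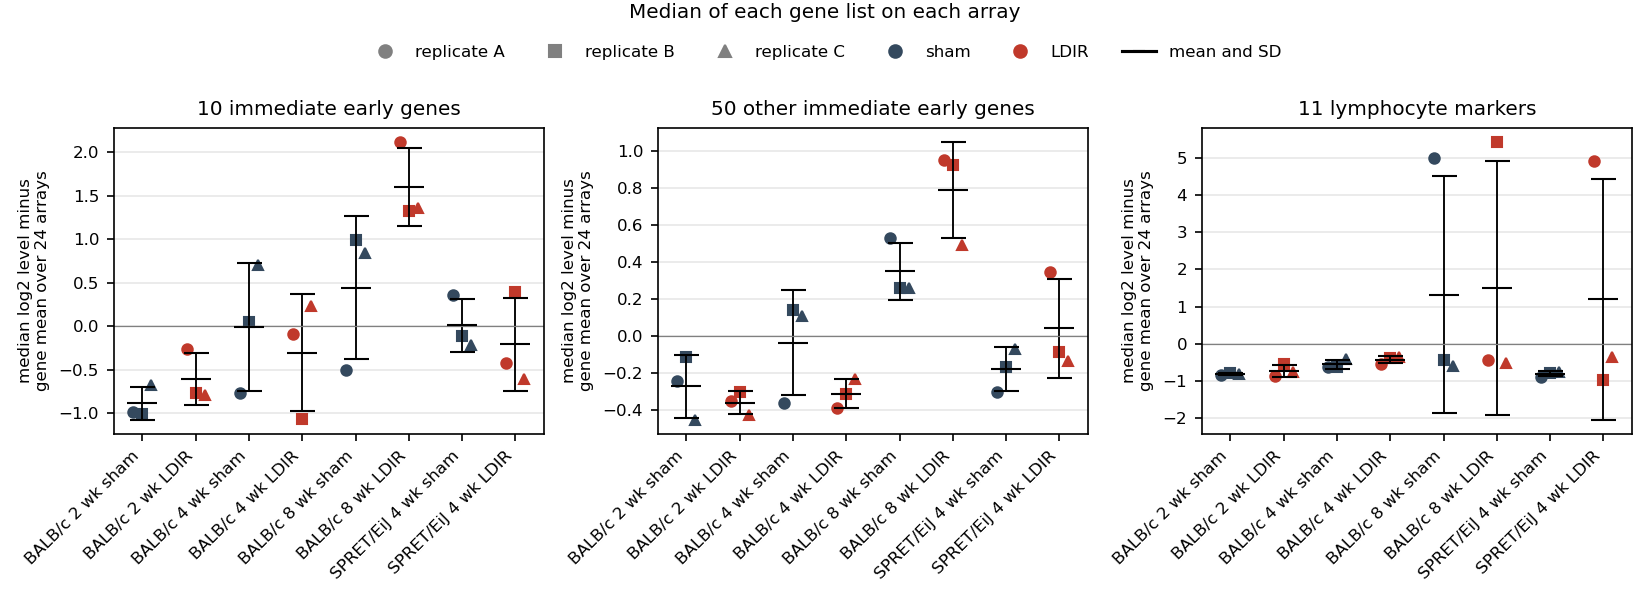
Median over the genes of a list of the log2 level minus the gene's mean over 24 arrays, for each mouse (points, shape by replicate letter) with the mean and SD of each group of 3: the 10 immediate early genes (left), 50 other immediate early genes (middle) and 11 lymphocyte markers (right). The 8-week LDIR mice are at 2.12, 1.33 and 1.36 in the left panel and at 0.95, 0.92 and 0.49 in the middle one, and the right panel shows the 3 arrays high in lymphocyte markers.

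In the other comparisons the wider list moved as follows. At 4 weeks in BALB/c 10 of 50 were higher (median −0.17) and 5 fell past the thresholds, beside 4.83% of all probes, which were Bhlhe40 (−0.75 ± 0.18), Plk3 (−0.67 ± 0.26), Maff (−0.66 ± 0.24), Socs3 (−0.64 ± 0.24) and Csrnp1 (−0.62 ± 0.17), with adjusted p of 0.68 to 0.775 by limma. In SPRET/EiJ 32 of 50 were higher and Arc (1.63 ± 0.69, adjusted p = 0.972) and Egr4 passed, beside 2.21% of all probes, but the Egr4 probe was well above background on none of those 6 arrays. At 2 weeks 20 of 50 were higher and none passed, beside 3.05% of all probes. In BALB/c sham mice of 4 against 2 weeks 40 of 50 were higher, and Ier2 (1.42 ± 0.26), Dusp2 (1.1 ± 0.44) and Socs3 (0.81 ± 0.31) passed, beside 3.04% of all probes, with adjusted p of 0.918 to 0.984. Between sham mice of the strains Nr4a2 was higher in BALB/c (0.96 ± 0.17, adjusted p = 0.0108 by limma), the 1 gene of 50 to pass beside 8.89% of all probes. Strain and slide cannot be told apart there.

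A list of 22 kinases and transcription factors upstream of these genes included Srf, the Elk factors, Creb1 and the MAP kinases. None of them passed the thresholds after LDIR in any of the 4 comparisons, beside 1.92% to 4.83% of all probes. Their medians lay between −0.08 and 0.08. Between sham mice of the strains Map2k7 was higher in BALB/c (1.89 ± 0.31, adjusted p = 0.00934 by limma). Atf1 (−1.37 ± 0.17, adjusted p = 0.00356) and Rps6ka3 (−2.13 ± 0.31, adjusted p = 0.00615) were lower. In that comparison strain and slide cannot be told apart, and 8.89% of all probes passed. Of 17 heat shock and unfolded protein genes measured, 1 was higher at 8 weeks (median −0.16) and none passed, at 2 weeks Hsph1 fell (−0.63 ± 0.25, adjusted p = 0.869 by limma), and between sham mice of the strains Trib3 was lower in BALB/c (−2.59 ± 0.41, adjusted p = 0.00803). Of 13 hypoxia genes measured none passed at 8 weeks, where the median was −0.07, and at 4 weeks Adm rose (1.19 ± 0.32, adjusted p = 0.71) and Egln3 fell (−0.63 ± 0.17, adjusted p = 0.72). Pfkfb4 was lower in sham mice of 4 than of 2 weeks (−0.64 ± 0.21, adjusted p = 0.984). On LDIR replicate A of 8 weeks the centred medians were −0.22 for heat shock genes and 0.22 for hypoxia genes, within the range of the other arrays. The array on which the 10 genes were highest thus did not stand apart in these 2 lists.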

How the data were processed

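Mammary gland RNA of 24 mice was hybridised in one colour to Agilent SurePrint G3 arrays, 1 mouse per array. Per the file headers, the deposited intensity values came from Feature Extraction 10.10.1.1, background-subtracted and detrended within each array. The authors also deposited log2 values, normalized to the 75th percentile in GeneSpring GX 12.5 per the methods and centred on each probe's median, which served as an alternative. After the same centring, 99.812% of them lay within 0.01 of the values computed here.

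From 59305 spots, 3777 outlier spots over the 24 arrays were left out, and 0 were saturated. Spots of a probe were averaged on the log2 scale and the array's 75th percentile over 55681 probes was subtracted. A gene with 2 probes is given by the brighter; the other Fosl2 probe, well above background on 20 arrays, ran from −6.49 to −2.07. Each comparison was a limma fit (version 3.58.1, R 4.3.3) of all probes over its 6 arrays, and p-values were adjusted by the Benjamini-Hochberg method over all probes. Thresholds followed the methods: an unadjusted p under 0.05 (under 0.001 between strains) and over 1.5-fold. In these fits of 6 arrays the adjusted p of every probe was above 0.05 for LDIR against sham. With slide as a block the BALB/c comparison rests on a single mouse, LDIR A at 8 weeks and sham C at 4 weeks. No count of probes is given for it. The labels do not say more of the 3 mice of a group than that they are separate samples, and this number limits the precision. Fits were tested on simulated data. Figures were drawn with matplotlib 3.10.9.

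The 10 genes, the gene lists and the tests were chosen with earlier results of these data known. Named are all 10 genes, the genes of the other lists past the thresholds (the rule took at most 6 a comparison by size; the rest are named with them) and the 8 genes most like the 10. Alternatives changed the background correction (normexp, offset 50), the normalization (quantile) or the values (the authors' log2 values). Others kept outlier spots, dropped undetected probes, averaged all probes of a gene, left out each array, fitted all 24 arrays together, used the letter or the slide as a block, or ran the t-test of the methods. Groups share the letters A, B and C. At 2 weeks the deviations of same-letter arrays correlated at 0.141, 0.442 and 0.102, and LDIR C correlated best with sham A. The main fit of each comparison took no letters as pairs. The letter was a block only in the alternative fit.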

Additional observations from a re-analysis of the deposited data

Results flagged for a closer look

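For Fosb, Jun and Atf3 every LDIR mouse lay above the mean of the sham mice at 8 weeks and every LDIR mouse lay below it at 4 weeks, both in BALB/c. The change at 4 weeks minus that at 8 weeks was −3.09 for Fosb (−0.57 and 2.52), −2.98 for Atf3 (−0.43 and 2.55) and −2.02 for Jun (−0.85 and 1.17). These differences were not tested, since the 8-week comparison chose the genes. At 4 weeks 2 of the 3 sham mice lay on another slide than the LDIR mice, and at 8 weeks 2 of the 3 LDIR mice lay on another slide than the sham mice. The part of the slide in these differences was not tested. No other of the 10 genes moved in opposite directions in all LDIR mice of any pair of the 4 LDIR comparisons.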

How the results depend on the processing

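Counts of the 10 genes past the thresholds, and their median change, were recomputed under each alternative. In SPRET/EiJ mice and between strains the count was 0 under every setting. At 8 weeks the count of 4 became 1 with the methods' t-test and 1 with the replicate block. It was 1 to 4 with single mice left out, and 2 with LDIR A and sham A both omitted. The median of 1.02 at 8 weeks became 0.15 without both mice A, and 0.57 to 1.21 with single mice left out. On slide 2 alone it was 1.66. Slide as a block gave the same value, since it too compares LDIR A alone with the sham mice. At 4 weeks in BALB/c the count of 1 became 0 with the methods' t-test and in the fit of all 24 arrays. It was 1 to 2 with single mice left out. The median of −0.35 became −0.76 to −0.08 with single mice left out. On slide 2 alone it was −0.99. Slide as a block gave the same value, since it too compares the LDIR mice with sham C alone. At 2 weeks the count of 0 became 1 without sham C (0 to 1 with single mice left out) and stayed 0 with the replicate block. For sham mice of 4 against 2 weeks the count of 2 became 1 with the methods' t-test and 0 with slide as a block, which leaves 4-week sham C out of the difference. It was 1 to 5 with single mice left out, and 3 with normexp, where Fos and Egr1 passed and Junb (0.50) did not. The cause of these shifts was not tested. The replicate block moved no other count by more than 1.5 times. At 8 weeks same-letter arrays correlated at −0.56, −0.57 and 0.54, and the labels do not say what mice of the same letter share. Fits restricted to slide 2 and without both mice A were chosen after seeing the data. Under normexp, quantile normalization, the authors' values, outlier spots kept, detected probes only and the mean of all probes the 8-week count stayed 4. With 3 mice a group and values of single mice spread over up to 4.25 log2 units among BALB/c sham mice, small changes of these genes could not be seen.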

Other observations

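Of 14 glucocorticoid-induced genes, 5 were higher in BALB/c LDIR mice at 8 weeks. Past the thresholds 2 were lower, beside 1.92% of all probes. That comparison chose the 10 genes, so it is given with no test. Fkbp5, a chaperone that binds the glucocorticoid receptor, was at 1.78, 2.76 and 2.01 in LDIR replicates A, B and C and at 4.10, 3.91 and 4.10 in the sham mice. All 3 LDIR mice lay far below all 3 sham mice, and LDIR replicate A was the lowest. The difference was −1.86 ± 0.32 (SE). Zbtb16, a zinc finger repressor induced by glucocorticoids, was at 2.85, 2.24 and 2.29 against 2.92, 4.21 and 4.49, where sham A lay close to the LDIR mice. In the other 3 LDIR comparisons none of the 14 genes passed, beside 2.21% to 4.83% of all probes, and their medians ran from −0.31 to 0.02.

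Among cell type markers the lists were mixed. At 8 weeks 10 of 11 lymphocyte, 9 of 17 epithelium, 7 of 10 white adipocyte and 7 of 9 endothelium markers were higher after LDIR. So were 1 of 8 fibroblast, 3 of 10 skeletal muscle, 3 of 8 epidermis, 3 of 6 erythrocyte and 2 of 11 macrophage and granulocyte markers. Of all markers in these lists 1, S100a8 (−1.18 ± 0.48), passed the thresholds, beside 1.92% of all probes.

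At 4 weeks in BALB/c 7 of 11 macrophage and granulocyte markers were higher after LDIR (median 0.10). In this comparison 4.83% of all probes passed the thresholds. Emr1 (0.72 ± 0.27), Cd68 (0.81 ± 0.22) and Mrc1 (0.77 ± 0.23) rose past the thresholds, with adjusted p of 0.711 to 0.775 by limma, and none fell past them. The 4 lower ones were Cd14 (−0.50), S100a9 (−0.86), Csf3r (−0.27) and Mpo (−0.65). Of 17 epithelium markers 6 were higher (median −0.22). The basal keratins Krt5 (−0.73 ± 0.29) and Krt14 (−0.93 ± 0.30) fell, both with an adjusted p of 0.775 by limma. The luminal keratins Krt8 (0.46), Krt18 (0.15), Krt19 (0.23) and Krt7 (0.18) did not pass. Other epithelium markers went both ways without passing: Epcam, Cdh1, Cldn3 and Cldn7 were lower, and Cldn4 and Elf5 were higher. Among the other markers the tight junction gene Cldn5 fell (−0.998 ± 0.239, adjusted p = 0.68), as 1 of 9 endothelium markers of which 2 were higher, and the myosin gene Myh2 rose (0.91 ± 0.24, adjusted p = 0.71), as 1 of 10 muscle markers of which 2 were higher.

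Few markers passed in the other comparisons. Of all probes, 3.05% passed at 2 weeks, 2.21% in SPRET/EiJ and 3.04% between sham mice of 4 and 2 weeks. At 2 weeks Esr1, the estrogen receptor, fell (−0.70 ± 0.19, adjusted p = 0.869 by limma), and the B cell gene Ms4a1 was higher after LDIR (adjusted p = 0.869). Ms4a1 was at −4.77, −3.26 and −4.66 after LDIR and at −5.44, −5.21 and −5.85 after sham. Its probe was not well above background in the sham mice, so the size of its change is uncertain. Krt1 also passed, with a probe not well above background in either group. In SPRET/EiJ the muscle genes Mylpf and Tnnt3 passed in opposite directions (1.53 ± 0.54 and −1.30 ± 0.32, adjusted p = 0.972 for both by limma), with probes well above background on 1 of 6 and 4 of 6 arrays. In sham mice of 4 against 2 weeks Cldn5 was higher (0.66 ± 0.22), and Lep (−0.90 ± 0.35), Hba-a1 (−1.18 ± 0.47), Hbb-b1 (−1.55 ± 0.46), Hbb-b2 (−1.52 ± 0.48) and Alas2 (−1.40 ± 0.51) were lower, all with an adjusted p of 0.984 by limma. Globin genes share sequence, so their signals may not be separate. Between sham mice of the strains Sbsn (4.69), Plin1 (3.84), Acta2 (3.68), Krt17 (3.11) and Cd79b (1.49) were higher in BALB/c. Mpo (−6.83) and Cd79a (−1.31) were lower, with adjusted p of 0.000145 to 0.00579 by limma for all these genes, and 8.89% of all probes passed. Strain and slide cannot be told apart there, and the effect of Mus spretus sequence on the probes was not tested.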
